A study of Homo sapiens with 4 samples.

Results

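The genes described here are 40 genes of mitosis and the G2/M transition, chosen by name from their known roles and read from the rows of the deposited tables that carry those symbols. All 40 were present once in each table, out of 20457 features. The cells were HEK 293, an established line from human embryonic kidney, with 2 libraries from cells labelled WT that received a negative control siRNA (siControl) and 2 from cells labelled CNOT4 knockdown (siCNOT4). Both groups received 10 nM siRNA for 72 h, and the libraries were poly(A)-selected. CNOT4 is a RING-type ubiquitin ligase linked to the CCR4-NOT deadenylase, and the study's question was its role in how codon choice affects expression. The labels do not say whether the 2 libraries of a group came from separate cultures, so the p-values measure the spread between these libraries, which may be technical.

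Entry into mitosis is driven by cyclin-dependent kinase CDK1 with cyclins A and B, which the CDC25 phosphatases activate and which Polo-like and Aurora kinases assist. Spindle microtubules then attach to kinetochores, and the spindle checkpoint delays the anaphase-promoting complex (APC/C) until every chromosome is attached. Transcripts of these genes accumulate late in the cell cycle through promoters that carry CCAAT boxes, bound by NF-Y, and a cell cycle homology region (CHR), bound by the MuvB complex in its DREAM and B-MYB forms. In a dividing cell line such as HEK 293 their level in bulk RNA depends both on the share of cells in G2 and M and on the amount of each mRNA per cell, and these cannot be told apart here.

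The promoters of the genes carried these elements more often than promoters in general. RefSeq promoter windows of 300 bases (250 before and 50 after the start, GRCh38.p14) were found for 34 of the 40 genes, in 44 windows. CCAAT, or ATTGG for the other strand, stood in 75.0% of these windows against 34.6% of all 35116 windows, and 45.5% against 10.8% held it at least 2 times. The CHR letters TTTGAA or TTCGAA, or TTCAAA for the other strand, stood in 65.9% against 16.4%. Both elements stood together in 54.5% against 6.38%. Overlapping matches were each counted. The 120 bases before the start are shown for a pair of genes that rose in siCNOT4 (HMMR and KIF11) and a pair that did not pass the test (PLK1 and CCNB1), with both elements in capitals, so that their promoters can be compared beside the values that follow.
HMMR, chr5:163460512-163460631, plus strand: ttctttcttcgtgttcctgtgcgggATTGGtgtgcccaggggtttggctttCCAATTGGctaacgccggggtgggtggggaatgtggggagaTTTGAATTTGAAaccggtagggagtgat
KIF11, chr10:92593010-92593129, plus strand: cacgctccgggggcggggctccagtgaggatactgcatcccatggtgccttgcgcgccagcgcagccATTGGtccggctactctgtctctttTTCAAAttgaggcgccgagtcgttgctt
PLK1, chr16:23678769-23678888, plus strand: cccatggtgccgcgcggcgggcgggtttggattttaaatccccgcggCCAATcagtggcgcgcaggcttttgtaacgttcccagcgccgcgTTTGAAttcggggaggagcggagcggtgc
CCNB1, chr5:69167030-69167149, plus strand: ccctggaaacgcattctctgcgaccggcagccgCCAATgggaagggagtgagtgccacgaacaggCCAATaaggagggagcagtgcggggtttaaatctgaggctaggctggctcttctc

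In the whole windows, HMMR held 5 CCAAT matches (a pair of them overlapping) and 2 adjacent CHR matches. KIF11 and PLK1 held 1 of each, and CCNB1 held 2 CCAAT matches and no match to these CHR letters. Among windows of genes that rose, 6 of 10 held CCAAT and 8 of 10 held CHR letters. Among windows of the other genes, the counts were 27 of 34 and 21 of 34. The 10 windows belong to 7 genes and the 34 to 27 genes, so windows of 1 gene share sequence, and a match is a description of letters and not of binding.

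Expression was measured as TPM (a length-normalized share of all transcripts that sums to 1000000 in each library), so TPM values may be compared between genes. The tables hold no read totals, and no counting interval is given. CNOT4 itself was listed at 6.43 and 4.73 TPM in siControl and at 3.38 and 3.81 in siCNOT4, so that both siCNOT4 libraries were lower. Its log2 fold change of -0.51 did not pass the test as deposited (limma adjusted p 0.184) and was -0.98 after scaling by trimmed mean of M values (TMM; limma adjusted p 0.0337). Among markers of the cells, VIM, KRT8, KRT18 and NEFL were listed at 193 to 917 TPM, NEFM and PAX2 at 0.412 to 1.91, and the 10 markers of leukocytes, hepatocytes, muscle and fibroblasts at 0 to 6.60. VIM fell from 917 and 650 TPM to 369 and 354 TPM (limma adjusted p 0.0288), and COL1A1 (0.906 and 1.39 TPM against 5.09 and 6.60) and DES (0.927 and 1.03 against 3.46 and 3.54) rose from low levels (limma adjusted p 0.0248 and 0.0270). Their part in the results was not tested. The median of all 14208 tested features was higher in siCNOT4 by 0.50 on the log2(TPM + 1) scale, and 81.2% of them had a fold change above 0. A value near 0.50 is therefore that of a typical feature, and fold changes are also given relative to that median.

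The 40 genes were well expressed in every library. Their summed level was 6259 and 5488 TPM in siControl and 7234 and 6871 TPM in siCNOT4, or 0.626%, 0.549%, 0.723% and 0.687% of all TPM. Both siCNOT4 sums were above both siControl sums. PTTG1, the securin that holds separase inactive until anaphase, had the highest level in all 4 libraries, from 696 to 1121 TPM. CENPE, a kinetochore motor, had the lowest in each, from 14.9 to 30.5 TPM. The 40 genes had a median of 95.7 and 79.9 TPM in siControl and 155 and 144 TPM in siCNOT4.

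**Figure D1:**
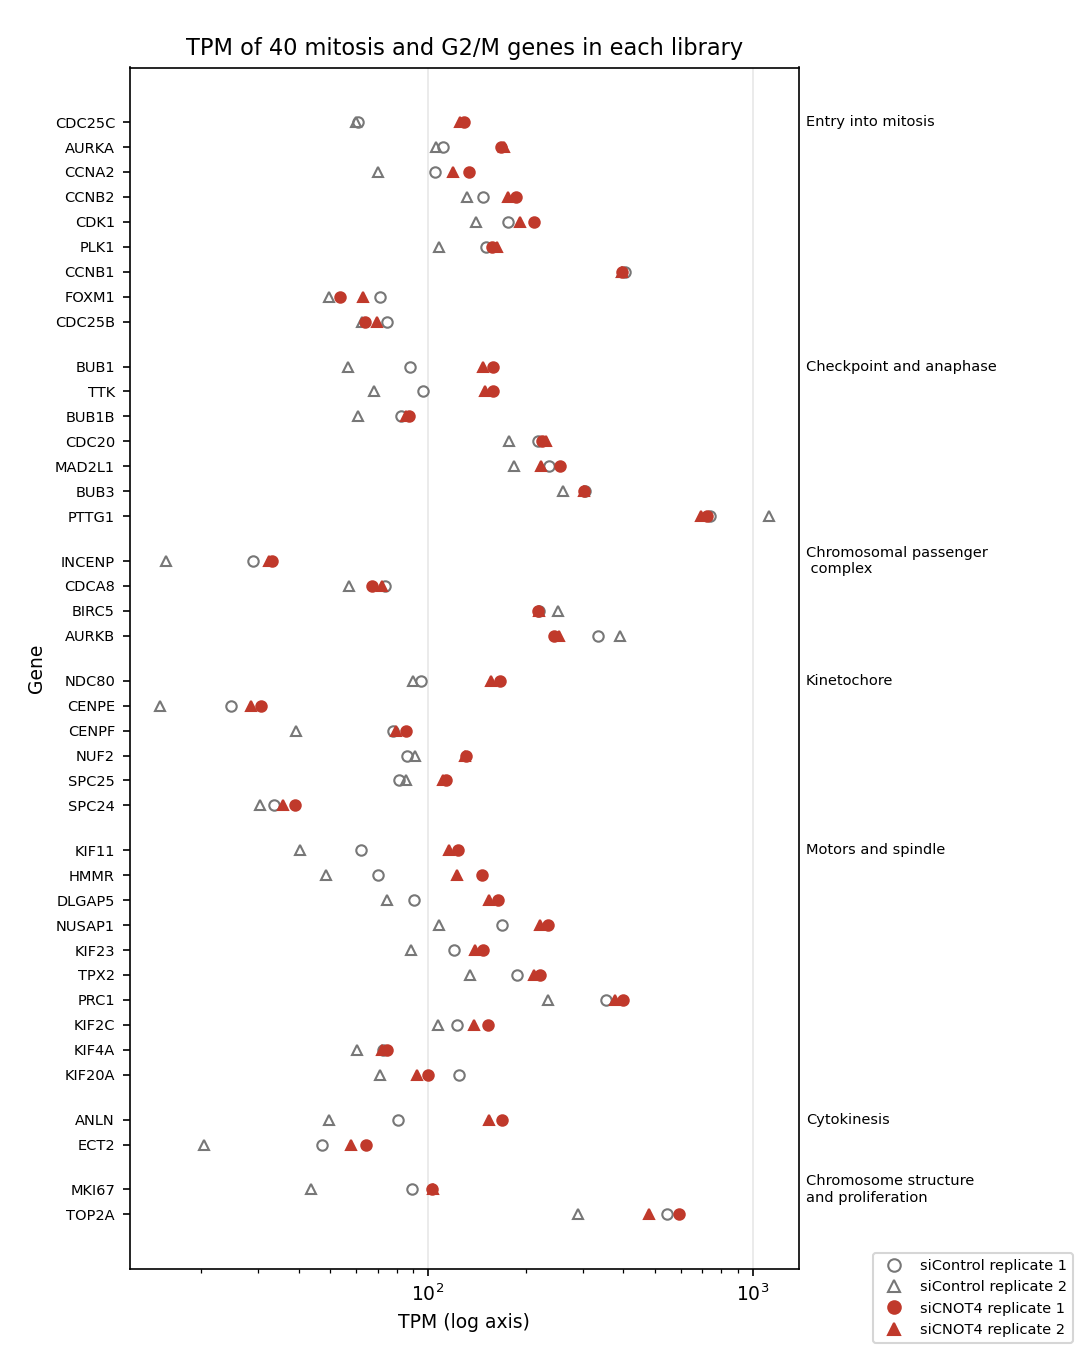
TPM on a log axis (horizontal) of each of the 40 genes (vertical, grouped by role) in the 4 libraries, 1 symbol a library: open grey for siControl, filled red for siCNOT4, circles for replicate 1 and triangles for replicate 2. The siCNOT4 symbols of CDC25C, NDC80 and KIF11 lie clear of the siControl ones, those of CCNB1 coincide near 400 TPM, and those of AURKB lie below both siControl symbols.

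At a limma adjusted p under 0.05, 9 of the 40 genes (22.5%) rose in siCNOT4, while 11.3% of all tested features were called higher. The 9 were ANLN, KIF11, HMMR, BUB1, CDC25C, DLGAP5, TTK, NDC80 and AURKA. None was called lower, where 1.3% of all features were, and at an unadjusted p under 0.05 14 of the 40 genes were higher, a share slightly below the 38% of all features, and 1, AURKB, was lower (4% of all features). Both siCNOT4 libraries exceeded both siControl libraries in 28 of 40 genes (70.0%), which is close to the 66.4% of all features. Both lay below in 3 (AURKB, PTTG1 and BIRC5), against 10.6% of all features. The groups overlapped in 9 genes. The median log2 fold change of the 40 genes was 0.43, below the median of all features by 0.07, and 17 of 40 exceeded that median. The number of calls depended on single libraries: it was 34 higher and 3 lower without siControl replicate 1, where 70.9% and 8.73% of all features were called. It was 15 and 2 without siControl replicate 2 (47.2% and 10.3%), 0 and 0 without siCNOT4 replicate 1 (3.09% and 0.26%, and 7 and 0 genes at an unadjusted limma p under 0.05), and 1 and 0 without siCNOT4 replicate 2 (2.91% and 0.26%). The calls over all features moved with the same libraries. The share of the 40 genes called higher was above that of all features with TPM as deposited and without siControl replicate 1. It was below that of all features without siControl replicate 2 and without either siCNOT4 replicate.

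Scaling moved the calls. TMM scaling lowered every one of the 40 fold changes by a nearly equal amount, so that the median was -0.14. With it, 0 genes were called in either direction, against 4.3% of all features higher and 5.59% lower, and at an unadjusted p under 0.05 the limma counts were 5 higher (16.7% of all features) and 9 lower (19.5%). After TMM scaling both siCNOT4 libraries exceeded both siControl libraries in 8 genes (20.0%, against 33.1% of all features) and lay below them in 21 (52.5%, against 36.7%). Quantile normalization gave 8 higher (7.11% of all features) and 1 lower (8.23%), and removal of each library's trend on transcript length and GC content gave 5 higher (17.2%) and 2 lower (9.06%). Of the 9 genes called with TPM as deposited, 8 were also called after quantile normalization and 5 (ANLN, KIF11, HMMR, BUB1 and CDC25C) after trend removal. AURKB was called lower in both of these fits, and FOXM1 in the latter.

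**Figure D2:**
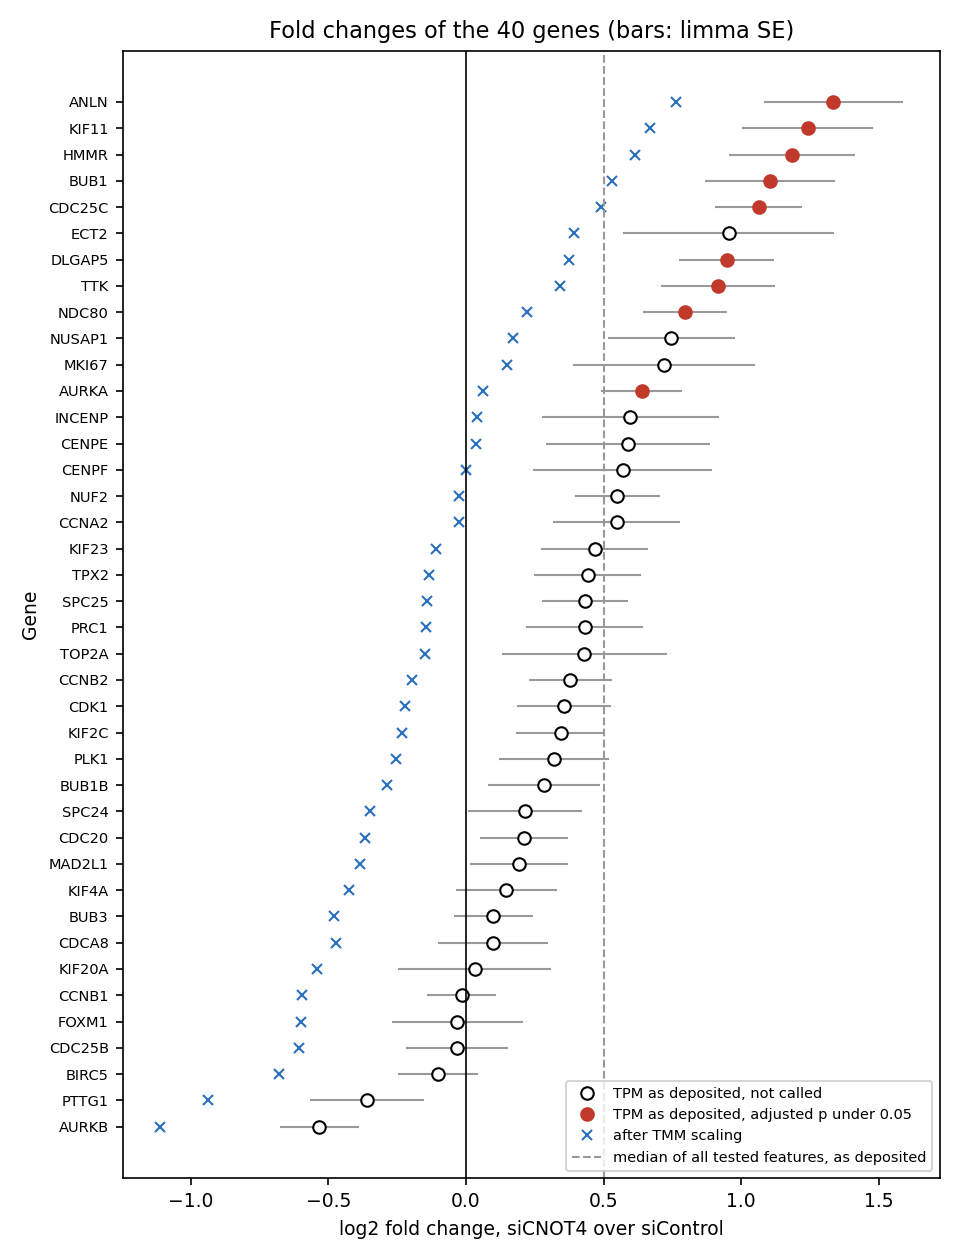
Log2 fold change between siCNOT4 and siControl (horizontal, positive where siCNOT4 is higher) for each gene (vertical), with limma SE as bars for TPM as deposited (circles, red where the adjusted p was under 0.05), and the same value after TMM scaling (crosses). The dashed line marks the median of all tested features, 0.50; values run from 1.34 for ANLN to -0.53 for AURKB, and TMM scaling moves all of them to the left.

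Of the 9 genes of entry into mitosis, CDC25C and AURKA rose and the other 7 did not pass the test. That is 22.2% called higher, against 11.3% of all features. At an unadjusted limma p under 0.05 it was 3 of 9, against 38% of all features. CDC25C, a phosphatase that activates CDK1, was listed at 60.8 and 59.98 TPM in siControl and at 129 and 126 TPM in siCNOT4, or 60.4 ± 0.571 against 127 ± 2.11 (mean ± SD, n = 2 in each group, as for all values with ±). The replicates nearly coincided and the groups were far apart, and CDC25C rose by 1.06 on the log2 scale (SE 0.16, limma adjusted p 0.0250), which is 0.56 above the median of all features. Its value was 0.49 after TMM scaling. CDC25C (chromosome 5, 138285265 to 138338355 in GENCODE 29 on GRCh38) shares 8.78% of its exon bases with FAM53C on the opposite strand. FAM53C was itself higher in siCNOT4, at 52.2 and 23.8 TPM in siControl against 76.5 and 82.3 TPM. Use of strand in the counting is not stated, and the part of this overlap in the value of CDC25C was not tested. AURKA, the kinase that matures centrosomes, had 111 and 106 TPM against 168 and 171 TPM. Its groups also stood apart (0.64, SE 0.15, limma adjusted p 0.0457), but 40.1% of all tested features had a higher fold change, and the value was 0.06 after TMM scaling.

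The cyclins and CDK1 did not pass the test, and their difference from CDC25C was not tested. CCNB1, the main mitotic cyclin, was listed at 404 and 396 TPM in siControl and 395 and 396 TPM in siCNOT4. Its 4 libraries were nearly equal, and the log2 fold change was -0.02 (SE 0.13), which is 0.52 below the median of all features. CDK1 had 176 and 141 TPM against 212 and 192 TPM, so that the groups did not overlap, and its fold change was 0.36 (SE 0.17, limma adjusted p 0.159). The partners CCNB2 and CCNA2 had 0.38 and 0.55, also with both siCNOT4 libraries above both siControl libraries, as in 66.4% of all features. PLK1, the Polo-like kinase, had 151 and 108 TPM against 157 and 163 TPM, where siControl replicate 1 lay close to the siCNOT4 libraries (0.32, SE 0.20).

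FOXM1 and CDC25B stood at the lower end of the entry genes. FOXM1, a transcription factor that drives G2/M genes, was listed at 71.3 and 49.5 TPM in siControl and 53.5 and 63.2 TPM in siCNOT4. The siCNOT4 values lay between the siControl values (-0.03, SE 0.24). FOXM1 shares 15.9% of its exon bases with ITFG2 on the opposite strand. CDC25B, a second activator of CDK1, had 74.7 and 62.7 TPM against 63.9 and 69.8 TPM, again with overlapping groups (-0.03, SE 0.19). Relative to the median of all features both genes were lower by 0.53, and after TMM scaling their fold changes were -0.60 and -0.61, with limma adjusted p values of 0.0632 and 0.0608.

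Of the 7 genes of the spindle checkpoint and anaphase onset, 2 rose, both of them kinases that start the signal at kinetochores. The share called higher was 28.6%, against 11.3% of all features. An unadjusted limma p under 0.05 was found for the same 2 of 7, against 38% of all features higher. After TMM scaling both siCNOT4 libraries lay below both siControl libraries in 5 of the 7, against 36.7% of all features. BUB1 (chromosome 2, 110637698 to 110678114) was listed at 87.9 and 56.9 TPM in siControl and 159 and 148 TPM in siCNOT4. Both siCNOT4 libraries were well above siControl replicate 1 (log2 fold change 1.11, SE 0.23, limma adjusted p 0.0422, and 0.53 after TMM scaling). TTK, also called MPS1, had 96.6 and 68.0 TPM against 158 and 149.6 TPM (0.92, SE 0.21, limma adjusted p 0.0449), and 0.34 after TMM scaling. By contrast BUB1B had 0.28, MAD2L1 0.19 and BUB3 0.10, all below the median of all features. CDC20, the APC/C activator that these proteins hold back, had 0.21. BUB3 and MAD2L1 overlapped between the groups.

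PTTG1 was listed at 741 and 1121 TPM in siControl and 724 and 696 TPM in siCNOT4. The siControl replicates differed far more than the siCNOT4 ones, and the log2 fold change was -0.36 (SE 0.21, limma adjusted p 0.218). It was -0.66 when siControl replicate 1 was left out and -0.06 when siControl replicate 2 was.

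None of the 4 members of the chromosomal passenger complex, which corrects attachments at centromeres and then guides cytokinesis, passed the test. Over all features 11.3% were called higher and 1.3% lower. At an unadjusted limma p under 0.05 only AURKB was lower and none higher, against 4% and 38% of all features. AURKB, the kinase of the complex (chromosome 17, 8204733 to 8210600), was listed at 334 and 389 TPM in siControl and 244 and 253 TPM in siCNOT4, or 362 ± 39.1 against 249 ± 6.59. Both siCNOT4 libraries lay below both siControl libraries (log2 fold change -0.53, SE 0.14, limma adjusted p 0.0581, unadjusted 0.00952), and 96.2% of tested features had a higher fold change. Without siControl replicate 2 it was -0.42. BIRC5 (survivin), which anchors the complex, had 219 and 252 TPM against 218 and 219 TPM, so that siControl replicate 1 and both siCNOT4 libraries were nearly equal (-0.10, SE 0.15). CDCA8 (borealin) had 0.10 with overlapping groups, and the scaffold INCENP had 0.60 (SE 0.32), from 28.8 and 15.6 TPM against 32.9 and 32.4 TPM.

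The aurora kinases AURKA and AURKB thus lay on opposite sides of the median of all features, at 0.14 above and 1.03 below it. This difference between the genes was not tested.

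Of the 6 genes of the outer kinetochore and its corona, NDC80 rose (16.7%, against 11.3% of all features called higher). At an unadjusted limma p under 0.05, 3 of the 6 were higher, against 38% of all features. NDC80 was listed at 94.8 and 90.1 TPM in siControl and 167 and 156 TPM in siCNOT4, with little spread within either group (log2 fold change 0.80, SE 0.15, limma adjusted p 0.0351). Of all tested features 29.6% had a higher fold change, and the value for NDC80 was 0.22 after TMM scaling. NDC80, NUF2, SPC24 and SPC25 form 1 complex that grips the microtubule end. Their fold changes were unequal in size: NUF2 had 0.55 (SE 0.15), SPC25 0.43 (SE 0.16) and SPC24 0.21 (SE 0.21). In all 4 genes both siCNOT4 libraries lay above both siControl libraries, as in 66.4% of all features. After TMM scaling this held for 0 of the 6 kinetochore genes. The long proteins CENPE and CENPF had 0.59 and 0.57, with SE of 0.30 and 0.33.

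Motor and spindle genes gave 3 of the 9 calls, from 10 genes (30%, against 11.3% of all features called higher). At an unadjusted limma p under 0.05, 4 of the 10 were higher, against 38% of all features. KIF11, the kinesin that pushes spindle poles apart (chromosome 10, 92593286 to 92655395), was listed at 62.1 and 40.4 TPM in siControl and 124 and 116 TPM in siCNOT4. The groups were clearly apart, and KIF11 rose by 1.24 on the log2 scale (SE 0.24, limma adjusted p 0.0352, and 0.67 after TMM scaling). HMMR, a spindle-associated protein, had 70.3 and 48.5 TPM against 147 and 123 TPM (1.19, SE 0.23, limma adjusted p 0.0354), and 0.61 after TMM scaling. DLGAP5 (HURP), which stabilizes kinetochore fibres, had 90.5 and 74.5 TPM against 165 and 154 TPM (0.95, SE 0.17, limma adjusted p 0.0319), and 0.37 after TMM scaling. The other 7 ranged from 0.03 for KIF20A to 0.75 for NUSAP1. The 4 genes whose proteins act in the central spindle did not pass the test: KIF23 had 0.47, PRC1 0.43, KIF4A 0.15 and KIF20A 0.03. In GENCODE 29, PRC1 shares 57.6% of its exon bases with a second gene model on its own strand and NUSAP1 62.2% with another. Neither of these other models is listed by its GENCODE 29 name among the deposited features. The part of these overlaps in the values was not tested. KIF20A was listed at 125 and 71.2 TPM against 100.1 and 92.7 TPM. Kept as the only control, siControl replicate 2 gave KIF20A a log2 fold change of 0.43, and siControl replicate 1 gave -0.37. The sign thus depended on which control library was kept. Such fits hold 1 control library and do not measure the spread between controls, so no test result is drawn from them for KIF20A.

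ANLN, the actin-binding scaffold of the cytokinetic ring, had the largest fold change of the 40. It was listed at 80.6 and 49.6 TPM in siControl and 169 and 154 TPM in siCNOT4, or 65.1 ± 21.9 against 161 ± 11.0. The lower siCNOT4 library was far above the higher siControl library (log2 fold change 1.34, SE 0.25, limma adjusted p 0.0340), and 6.14% of tested features had a higher fold change. The value was 1.68 when siControl replicate 1 was left out and 0.99 when siControl replicate 2 was, and 0.76 after TMM scaling. ECT2, the exchange factor that activates RhoA at the ring, had 47.1 and 20.4 TPM against 64.6 and 58.0 TPM. Its siControl replicates differed by more than those of any other of the 40 genes, and its fold change of 0.95 (SE 0.38) had a limma adjusted p of 0.113. With siControl replicate 2 as the only control it was 1.54, and with replicate 1 alone 0.37.

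Neither marker of proliferating cells passed the test. MKI67 (Ki-67) was listed at 89.0 and 43.5 TPM in siControl and 103 and 103 TPM in siCNOT4 (log2 fold change 0.72, SE 0.33, limma adjusted p 0.145). TOP2A, the topoisomerase that decatenates sister chromatids, had 544 and 289 TPM against 595 and 480 TPM (0.43, SE 0.30). In both genes siControl replicate 2 alone was low, and siControl replicate 1 was close to siCNOT4 for MKI67 and within its range for TOP2A. The value for MKI67 was 1.23 when siControl replicate 1 was left out and 0.21 when siControl replicate 2 was, and that for TOP2A was 0.89 and -0.03.

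The 2 siControl libraries differed across the 40 genes. Replicate 1 exceeded replicate 2 in 35 of 40, by a median of 0.40 on the log2(TPM + 1) scale, against 0.38 over all tested features. The corresponding medians in siCNOT4 were 0.08 and -0.03. The siControl difference was larger for longer transcripts: across the 40 genes its Spearman rho with transcript length was 0.677, against 0.601 over 13736 features. It was 1.17 for ECT2, 1.02 for MKI67 and 0.98 for CENPF, and -0.60 for PTTG1, which has the shortest transcript of the 40 (1070 bases). The part of this replicate difference in the fold changes was not tested beyond the values without each library.

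Coding composition, which the choice of genes did not use, varied widely among the 40. GC3, the G and C content at the last position of codons, ran from 27.2% (DLGAP5) to 79.2% (SPC24) with a median of 43.5%, against 59.0% for 12877 tested features with a complete coding sequence. Of 16 genes with a GC3 under 40%, 8 rose. Of 11 with 40 to 50%, 1 (CDC25C) did, and of 5 with 50 to 60% and 8 with at least 60%, 0 did. Among all features the shares called higher in the 4 bands (under 40, 40 to 50, 50 to 60 and at least 60%) were 14.5%, 12.8%, 11.3% and 9.41%. The median log2 fold changes of the genes in these bands were 0.72, 0.44, 0.10 and 0.09, against 0.79, 0.64, 0.52 and 0.34 for all features. Most genes under 50% were not called, and in each band the genes' median was below that of all features. The bands were set after the values had been seen.

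Stretches of 30 codons in 1 exon show the difference (GRCh38, GENCODE 29). DLGAP5 and KIF11 rose, AURKB had the lowest fold change and PLK1 did not pass the test. These genes were picked after their values were seen, so they illustrate composition only. With the length and GC trend removed, DLGAP5 had 0.34 and did not pass (limma adjusted p 0.104). KIF11 had 0.51 and did (limma adjusted p 0.0280). Capitals mark a G or C in the last position of a codon, and each stretch begins at the first position of a codon.
DLGAP5, chr14:55183602-55183691, minus strand: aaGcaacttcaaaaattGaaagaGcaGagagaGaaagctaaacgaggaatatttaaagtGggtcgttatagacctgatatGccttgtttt
KIF11, chr10:92609020-92609109, plus strand: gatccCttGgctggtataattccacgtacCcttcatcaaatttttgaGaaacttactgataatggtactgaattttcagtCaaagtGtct
AURKB, chr17:8207187-8207276, minus strand: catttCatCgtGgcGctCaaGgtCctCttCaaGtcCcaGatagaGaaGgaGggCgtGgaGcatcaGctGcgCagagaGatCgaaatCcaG
PLK1, chr16:23679233-23679322, plus strand: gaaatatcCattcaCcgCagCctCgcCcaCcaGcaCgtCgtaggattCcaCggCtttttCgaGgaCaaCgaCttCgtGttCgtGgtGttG

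Of the 30 last positions, 7 were G or C in DLGAP5, 6 in KIF11, 25 in AURKB and 24 in PLK1, where the whole coding sequences had a GC3 of 27.2%, 31.4%, 72.5% and 73.3%. Across the 40 genes the Spearman rho between GC3 and the log2 fold change was -0.660, against -0.338 over the 12877 features. For the difference between the siControl replicates it was -0.256 in the 40 genes and -0.303 over all features, and for that between the siCNOT4 replicates -0.487 and -0.466. Over all features GC3 thus followed the difference between the siCNOT4 replicates more closely than the fold change. GC content of the whole transcript gave -0.581 with the fold change in the 40 genes and -0.618 with the difference between the siCNOT4 replicates. These correlations are across genes measured in the same libraries, which share base composition and library effects, and so they describe these 4 libraries. Among the genes that departed from this order were INCENP (75.7%, 0.60), CCNB1 (40.4%, -0.02) and PTTG1 (43.1%, -0.36).

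**Figure D3:**
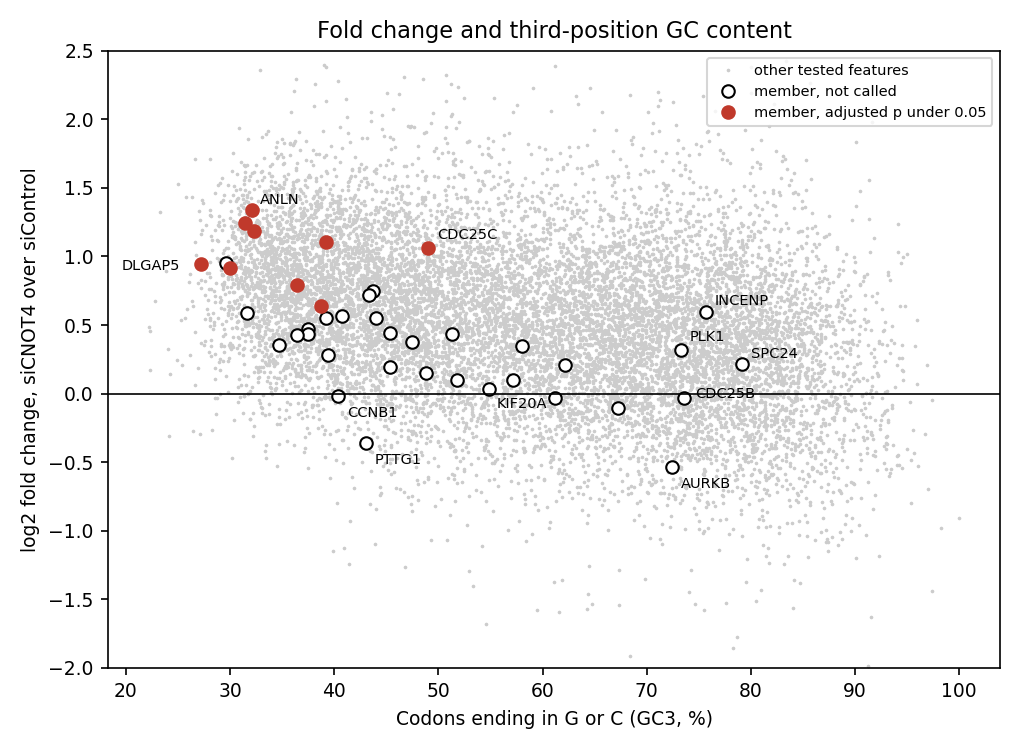
GC3 (horizontal, % of codons) against the log2 fold change between siCNOT4 and siControl (vertical, positive where siCNOT4 is higher) for the 40 genes (circles, red where the adjusted p was under 0.05) and for the other tested features (grey dots; 10 of all 12877 lie outside the vertical range). Red circles lie between 27.2% and 49.0% on the horizontal axis, and the genes above 50% lie between -0.53 and 0.60.

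Other genes of mitosis and the cell cycle were read in 7 lists from the same fit. Over all features that fit called 11.3% higher and 1.3% lower. Of 20 condensin and cohesin genes, which shape and hold chromatids, 1 was called higher and 0 lower (10 and 0 at an unadjusted p under 0.05, where 38% and 4% of all features stood). The median was 0.77, and the values ran from 0.20 for SMC3 to 1.39 for SMC2 (limma adjusted p 0.0459), a condensin subunit listed at 40.1 and 20.7 TPM against 82.0 and 73.3 TPM. Of 18 inner kinetochore genes, 3 were called higher and 0 lower (9 and 1 unadjusted), with a median of 0.53. CENPQ, of the constitutive centromere complex, was the highest, at 43.1 and 27.8 TPM against 153 and 140.0 TPM (2.05, limma adjusted p 0.0227), and CENPI (1.34) and CENPH (0.64) also rose. CENPM was the lowest (-0.49). Of 17 centrosome and spindle assembly genes, 0 were called by limma (6 higher and 0 lower unadjusted), with a median of 0.65 and a range from 0.04 (HAUS1) to 1.45 (ASPM, limma adjusted p 0.0544).

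The genes that regulate mitosis had lower medians. Of 18 APC/C genes, 1 was called lower and 0 higher (2 and 4 unadjusted), with a median of 0.29. Over all features 1.3% were called lower and 11.3% higher (4% and 38% unadjusted). UBE2S, the E2 enzyme that extends ubiquitin chains for the APC/C, fell from 178 and 205 TPM to 115 and 119 TPM (-0.70, limma adjusted p 0.0436), and CDC27, a core subunit, had the highest value (1.04, limma adjusted p 0.0600). Of 16 genes that control mitotic entry, 1 was called lower and 0 higher (1 and 5 unadjusted), with a median of 0.36. It was CKS1B, a small subunit that binds cyclin-dependent kinases, which fell from 125 and 151 TPM to 83.7 and 77.7 TPM (-0.76, limma adjusted p 0.0449), and the highest was the checkpoint kinase CHEK1 (0.96, limma adjusted p 0.0613).

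The 12 DREAM, MuvB and B-MYB genes encode the factors that act at CHR elements. Their median was 0.33, with 1 called higher and 0 lower (2 and 0 unadjusted). The shares of all features were 11.3% and 1.3% (38% and 4% unadjusted). RBL1 (p107) rose from 15.7 and 6.09 TPM to 35.4 and 34.6 TPM (1.73, limma adjusted p 0.0492), and its relative RBL2 (p130) had the lowest value (-0.14). The list of G1 cyclins and CDK inhibitors also held CDK2, CDK4, CDK6 and RB1. Of its 15 tested genes, 1 was called higher and 1 lower (3 and 2 unadjusted), with a median of 0.26. CDKN2D, an inhibitor of CDK4 and CDK6, rose by 1.26. CDKN2A, the locus of the inhibitors p16 and ARF, fell from 91.3 and 96.5 TPM to 38.9 and 41.5 TPM (-1.20, limma adjusted p 0.0244), and RB1 had the highest value (1.42, limma adjusted p 0.0674). After TMM scaling the fold changes of CENPQ, CENPI, UBE2S, CKS1B and CDKN2A still passed the test, at 1.48, 0.82, -1.28, -1.34 and -1.77, and those of SMC2, CENPH, RBL1 and CDKN2D (0.83, 0.06, 1.19 and 0.74) did not. The lists were written by role and not tested as sets, and the median of all features was 0.50.

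**Figure D4:**
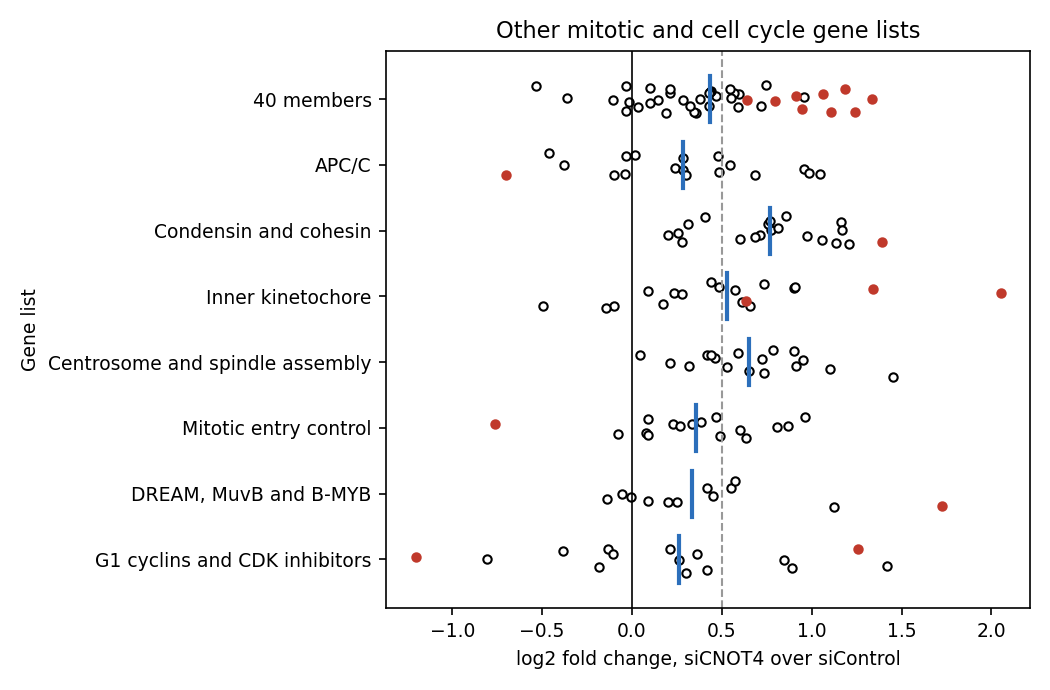
Log2 fold change between siCNOT4 and siControl (horizontal, positive where siCNOT4 is higher) for the 40 genes and for 7 other lists (vertical, points spread within a row for visibility): red points had a limma adjusted p under 0.05, blue bars mark list medians, and the dashed line marks the median of all tested features, 0.50. Condensin and cohesin genes have the highest median, 0.77. The list of G1 cyclins and CDK inhibitors, which also holds CDK2, CDK4, CDK6 and RB1, has the lowest, 0.26.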

How the data were processed

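Per the submitters' processing notes, the tools were FastQC 0.11.2, STAR 2.5.3a and featureCounts, with genome build hg19. Use of strand, annotation and gene lengths are not given in the sources used here. Each library has a deposited table of TPM, per the file headers, and its values sum to 1000000. The 40 genes, the 7 lists and the tests were chosen with earlier results of these data known. Here, log2(TPM + 1) was taken for the 14208 features whose TPM averaged 1 or more (all 40 genes among them) and fitted with limma 3.58.1 (lmFit, eBayes with trend, R 4.3.3), 2 libraries against 2, with Benjamini-Hochberg adjustment over all features and a threshold of 0.05. Fold changes are on that scale, which understates those of low genes. TMM factors were computed over all features with the standard trims (30% of M and 5% of A on each side). An exact permutation test of 2 libraries against 2 cannot go below p = 0.333 and was not used.

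Features were matched to GENCODE 29 (GRCh38) by symbol (18438) or older symbol (955), and 1064 had no match. The longest complete coding sequence of at least 90 bases represented a gene. Trend removal used natural splines with 5 degrees of freedom each for log2 transcript length and GC content. Library values are given for CDK1, CCNB1, PLK1, AURKA, MKI67, TOP2A, FOXM1, every called gene, and the 5 highest and 5 lowest fold changes relative to the median. ECT2, INCENP and KIF20A were added after their values were seen, as were CENPE, the gene pairs shown as sequences and the genes compared within complexes. In each list the highest and lowest gene are named.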

Additional observations from a re-analysis of the deposited data

How the results depend on the processing

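The number of the 40 genes called depended on the processing, as did that of all features. It was 2 higher with a pseudocount of 0.1 (3.36% of all features), 0 with no filter on low values (0 of 20457 features, and 12 genes and 29.6% of features at an unadjusted limma p under 0.05), 1 with a mean TPM of at least 5 (0.957%), 0 with TMM scaling, 8 higher and 1 lower with quantile normalization, and 5 and 2 with the length and GC trend removed. Leaving out 1 library gave 0 to 34 higher and 0 to 3 lower. With the replicate block 12 were higher and 1 lower (23.5% and 2.20% of all features). The labels do not say that equal replicate numbers pair the libraries, and deviations of equally numbered libraries correlated across features with r = 0.17, from 2 pairs. The median fold change of the 40 was -0.14 with TMM scaling, 0.18 with quantile normalization, -0.0080 with the trend removed, and 0.20 to 0.62 with 1 library left out. Relative to all features it was 0.11 with no filter and 0.16 with quantile normalization. The value of CNOT4 was -0.98 with TMM scaling, -1.15 with quantile normalization, -1.01 with the trend removed, and -0.70 to -0.32 with 1 library left out. All features moved by median as well: 0.50 as deposited, -0.02 with TMM scaling, 0.02 with quantile normalization and 0.11 with the trend removed. The share of calls that were higher was 89.7%, 43.5%, 46.4% and 65.5% in the same order. The cause of these changes was not tested.

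Genes that changed sign were, with TMM scaling, CDK1 -0.22, CCNA2 -0.026, CCNB2 -0.20, PLK1 -0.25, BUB1B -0.29, BUB3 -0.48, MAD2L1 -0.39, CDC20 -0.37, CDCA8 -0.47, NUF2 -0.024, SPC24 -0.35, SPC25 -0.14, CENPF -0.00092, KIF20A -0.54, KIF23 -0.11, KIF2C -0.23, KIF4A -0.42, TPX2 -0.13, PRC1 -0.15 and TOP2A -0.15. With quantile normalization they were BUB1B -0.062, CDCA8 -0.24, SPC24 -0.24, KIF20A -0.28 and KIF4A -0.19. With the trend removed they were CDK1 -0.16, BUB1B -0.25, BUB3 -0.67, MAD2L1 -0.55, CDCA8 -0.23, SPC24 -0.070, CENPE -0.34, CENPF -0.26, KIF20A -0.38, KIF23 -0.10, KIF2C -0.033, KIF4A -0.37, TPX2 -0.020 and TOP2A -0.33. With 1 library left out, the sign changed for FOXM1 and CDC25B (without siControl replicate 1 or siCNOT4 replicate 1), KIF20A (without siControl replicate 2 or siCNOT4 replicate 1) and BUB3, CDCA8 and TOP2A (without siControl replicate 2), with ranges of CDC25B -0.16 to 0.090, FOXM1 -0.29 to 0.23, BUB3 -0.014 to 0.21, CDCA8 -0.086 to 0.28, KIF20A -0.37 to 0.43 and TOP2A -0.026 to 0.89. A fit without 1 library leaves a group with 1, assumed to vary like the other group. TPM keeps no depth, so counting error is unknown.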
